A study of Homo sapiens with 18 samples.

Results

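The genes described here are 37 genes of cholesterol and fatty acid synthesis, out of 39496 genes in the deposited table. They were listed by name and not by a measured value, with earlier results of these data known, and fall into 5 roles: 6 genes of the isoprenoid steps from acetyl-CoA to farnesyl diphosphate, 11 of the sterol steps from squalene to cholesterol, 5 of the SREBP machinery that senses sterols, 6 of cholesterol transport and storage, and 9 of fatty acid and triglyceride synthesis (lipogenesis). Of these, 36 passed the filter on low counts that left 20144 genes for testing. ABCG1, a cholesterol efflux pump, did not pass: it had 0 reads in all 9 UM-UC-3 libraries and between 0 and 8 reads in the 9 T24 libraries.

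Gene expression was measured by RNA-seq in UM-UC-3 and T24, 2 established human bladder cancer cell lines. Wild-type cells of each line received either siNC, a control siRNA, or siACAT1-1 or siACAT1-2, which target ACAT1, by Lipofectamine transfection. Each of the 6 groups had 3 biological replicates, 18 libraries in all. UM-UC-3 cells were grown in MEM and T24 cells in RPMI-1640, both with serum, so that the cell line and the medium cannot be told apart. In such bulk samples fewer cells of a kind and less RNA per cell cannot be told apart either. ACAT1 encodes the mitochondrial acetyl-CoA acetyltransferase, and its RPKM (reads scaled by gene length and by the library's counted reads) was lower than with siNC by 93.4% in UM-UC-3 and 92.0% in T24 for siACAT1-1, and by 95.3% and 95.1% for siACAT1-2. SOAT1, a different gene that has also gone by the name ACAT1 because it esterifies cholesterol, is 1 of the 37 genes and is described below.

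Cells build cholesterol from acetyl-CoA through the mevalonate pathway, and they build fatty acids from the same precursor through acetyl-CoA carboxylase and fatty acid synthase. When membrane sterols are low, SCAP escorts the SREBP transcription factors to the Golgi, where they are cut and released to switch on most genes of both pathways, whereas INSIG proteins hold the complex in the endoplasmic reticulum when sterols are plentiful. When sterols are in excess, LXR receptors raise the efflux pump ABCA1 and MYLIP, a ubiquitin ligase that marks lipoprotein receptors for decay.

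The promoters were examined because SREBP and its partners act there. RefSeq promoter windows on GRCh38.p14, 250 bases before to 50 bases after a transcript's start, were matched for 33 of the 37 genes. Of the 33, 10 had more than 1 window, and 15 had a window whose start lay downstream of the first annotated base of the gene. A gene counts as holding a motif when any of its windows does. A sterol regulatory element, TCACNCCAC on either strand, was found in 1 of 33 genes (3.03%). It was found in 1.39% of all 27305 genes with a promoter window and in 1.51% of the protein-coding ones. An E-box, CACGTG, was found in 5 of 33 (15.2%, against 8.77% of all genes and 10.9% of protein-coding genes), namely SCAP, INSIG1, ABCA1, SC5D and LSS. The letters CCAAT, which the partner factor NF-Y reads, were searched only after the first motifs had been counted. They were found on either strand in 23 of 33 (69.7%, against 39.7% of all genes with a window and 42.1% of the protein-coding ones). CCAAT was present in 5 of 6 isoprenoid and 8 of 9 sterol genes with a window. The number of windows per gene among all genes is not given here. Printed below are the 250 bases before the start, 5′ to 3′ on the gene's strand, of SREBF2 (chr22:41832855-41833104, plus strand), which held the sterol regulatory element, of SCD (chr10:100346983-100347232, plus strand), which held the CCAAT letters at 2 places, and of ABCA1 (chr9:104928156-104928405, minus strand), which held an E-box. The printed bases end just before the first base of each gene in RefSeq. Motif letters are in capitals, and ATTGG is CCAAT read on the other strand.
SREBF2: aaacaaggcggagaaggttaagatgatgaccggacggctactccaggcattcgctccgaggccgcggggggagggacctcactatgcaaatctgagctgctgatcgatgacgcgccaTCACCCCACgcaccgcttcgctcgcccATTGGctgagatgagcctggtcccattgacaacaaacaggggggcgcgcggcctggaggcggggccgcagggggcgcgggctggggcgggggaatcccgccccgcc
SCD: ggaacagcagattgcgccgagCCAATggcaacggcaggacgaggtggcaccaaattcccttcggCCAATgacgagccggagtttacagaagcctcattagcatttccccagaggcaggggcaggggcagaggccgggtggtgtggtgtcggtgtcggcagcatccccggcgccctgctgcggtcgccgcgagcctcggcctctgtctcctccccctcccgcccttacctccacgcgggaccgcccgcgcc
ABCA1: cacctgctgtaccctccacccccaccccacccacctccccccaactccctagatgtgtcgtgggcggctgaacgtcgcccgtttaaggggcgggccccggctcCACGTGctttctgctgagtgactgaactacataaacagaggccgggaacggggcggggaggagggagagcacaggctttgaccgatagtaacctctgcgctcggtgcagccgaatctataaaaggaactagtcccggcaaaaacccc
The SREBF2 element began 133 bases before the start. The same bases of FADS1 and NPC1 held none of these motifs. A match describes the letters in the window and does not show that a factor was bound.

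The first question was whether ACAT1 knockdown changed these genes. Counts were tested by quasi-likelihood in edgeR, all 18 libraries being fitted together, and calls are genes whose Benjamini-Hochberg adjusted p over all 20144 genes was under 0.05. None of the 36 genes was called in UM-UC-3 with siACAT1-1 or siACAT1-2 (0.00993% and 0.0546% of all genes were called), in T24 (0.124% and 0.268%) or in the mean of the 4 comparisons (0.223%). At an unadjusted p under 0.05 there were 0, 0, 5, 2 and 4 of the 36 genes, respectively (0%, 0%, 13.9%, 5.56% and 11.1%), against 5.34%, 3.86%, 11.5%, 8.44% and 10.9% of all genes. DESeq2 called 1 of the 36 (2.78%), FADS1, in each T24 comparison and in the mean, against 1.89%, 1.21% and 1.49% of all genes.

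In both lines, deviations from the group means were correlated between libraries of equal replicate number, and the test was therefore repeated with that number as a block. With the block, 2 of 36 genes were called with siACAT1-1 in UM-UC-3 (5.56%, against 3.06% of all genes), 0 with siACAT1-2 in UM-UC-3 (1.36% of all genes), 10 with siACAT1-1 in T24 (27.8% against 13.9%), 7 with siACAT1-2 in T24 (19.4% against 8.48%) and 7 in the mean of the 4 comparisons (19.4% against 12.4%). In that mean FASN, FADS1, FADS2, SCD and MVK fell, and NPC1 and ABCA1 rose. Without the block, the median log2 fold change of the 36 genes with siACAT1-1 and siACAT1-2 was −0.09 and −0.15 in UM-UC-3. It was 0.07 and −0.11 in T24. In the mean of the 4 comparisons the median was −0.11 (SD over replicates 0.11), against 0.00 for all genes. Replicate numbers do not pair libraries across lines, so this SD of the mean of the 4 comparisons is only a rough description. In that mean 24 of 36 lay below 0 (66.7%, against 50.2% of all genes). By role, 6 of 6 isoprenoid, 7 of 11 sterol, 3 of 5 SREBP, 1 of 5 transport and 7 of 9 lipogenesis genes lay below 0, and the calls with the block were 1 isoprenoid, 0 sterol, 0 SREBP, 2 transport and 4 lipogenesis genes. With siACAT1-1 in UM-UC-3 FASN fell (−0.66) and NPC1 rose (0.63), calls kept in 11 and 9 of 18 fits with 1 library left out (adjusted p up to 0.342 and 0.377), and lost for both without siNC replicates 2 or 3 or siACAT1-1 replicates 1 or 3 of that line. In T24, MVK, PMVK, EBP, FASN, SCD, FADS1 and FADS2 fell and LSS, NPC1 and LPIN1 rose with siACAT1-1, while IDI1, FASN, FADS1 and FADS2 fell and LSS, NPC1 and ABCA1 rose with siACAT1-2. Without T24 siACAT1-1 replicate 1, 9 of these 10 siACAT1-1 calls were lost, all but NPC1. Of the siACAT1-2 calls in T24, IDI1, NPC1, FASN, FADS1 and FADS2 were lost without T24 siNC replicate 1. LSS, NPC1, ABCA1, FADS1 and FADS2 were lost without T24 siNC replicate 3. Over the left-out libraries the edgeR adjusted p of IDI1, NPC1, FASN, FADS1 and FADS2 reached 0.101, 0.209, 0.133, 0.122 and 0.151. The share of all called genes lost in these fits is not given here. The 4 comparisons share the siNC libraries of each line, so they are not independent.

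**Figure D1:**
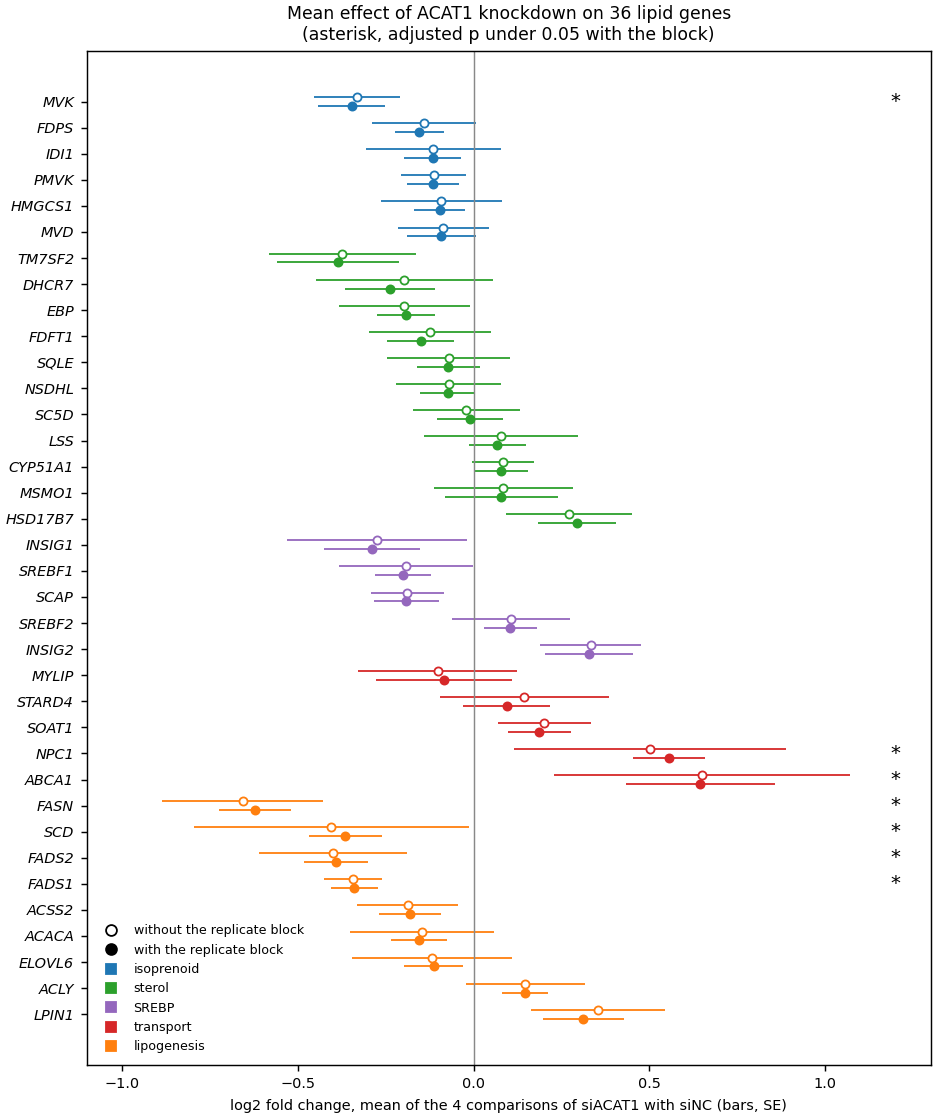
Log2 fold change of 36 genes in the mean of the 4 comparisons of siACAT1 with siNC (x axis, bars are SE), without (open) and with (filled) the replicate block, coloured by role, with an asterisk where the adjusted p was under 0.05 with the block. The estimates are close in both fits and the bars are shorter with the block for most genes. FASN at −0.66 and ABCA1 at 0.65 without the block are the lowest and highest.

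In the mean of the 4 comparisons with the block, 4 of the 7 calls were lipogenesis genes. FASN, which encodes fatty acid synthase (chr17:82078333-82098332, minus strand, GRCh38), had the lowest fold change of the 36. Values are given here and below in the order of replicates 1, 2 and 3. FASN in UM-UC-3 cells was at 5.61, 6.600 and 2.897 RPKM with siNC, at 3.12, 4.698 and 1.83 with siACAT1-1 and at 5.45, 4.36 and 2.64 with siACAT1-2. FASN in T24 cells was at 6.23, 3.04 and 4.55 RPKM with siNC, at 2.66, 2.61 and 2.296 with siACAT1-1 and at 3.05, 2.104 and 2.81 with siACAT1-2. On the scale of log2 CPM (counts scaled by TMM library size, prior count 2), on which all comparisons of same-numbered libraries are given, FASN was below the siNC library of its number in 12 of 12 siACAT1 libraries, as were 1.91% of all genes, although the groups overlapped in UM-UC-3 and for siACAT1-2 in T24. In the mean of the 4 comparisons its log2 fold change was −0.66 (SE 0.23, edgeR adjusted p = 0.299) without the block and −0.62 (SE 0.10, adjusted p = 5.75e-04) with it. The blocked adjusted p stayed at or under 0.0078 when any 1 of the 18 libraries was left out.

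FADS1 and FADS2 encode the desaturases that put further double bonds into polyunsaturated fatty acids. As annotated, FADS1 (chr11:61799625-61829318, minus strand) lies within the span of FADS2 (chr11:61792980-61867354, plus strand). FADS1 in UM-UC-3 cells was at 16.3, 19.4 and 19.1 RPKM with siNC, at 15.6, 17.4 and 15.5 with siACAT1-1 and at 15.9, 17.1 and 16.95 with siACAT1-2. FADS1 in T24 cells was at 14.8, 12.4 and 15.8 RPKM with siNC, at 8.89, 10.9 and 9.72 with siACAT1-1 and at 9.33, 10.6 and 10.3 with siACAT1-2. All 6 siACAT1 libraries of T24 lay below all 3 siNC libraries, whereas in UM-UC-3 the groups overlapped. FADS1 was also lower in 12 of 12 pairs of the same number. Its mean log2 fold change was −0.34 (SE 0.084, edgeR adjusted p = 0.110 without the block; SE 0.067, adjusted p = 0.0025 with it), and DESeq2 gave an adjusted p of 0.0058. Without T24 siNC replicate 2, FADS1 was called without the block too (log2 fold change −0.41, adjusted p = 0.0317), and with the block it stayed called without any 1 library.

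FADS2 in UM-UC-3 cells was at 1.22, 1.35 and 0.799 RPKM with siNC, at 1.03, 1.35 and 0.706 with siACAT1-1 and at 1.096, 1.16 and 0.537 with siACAT1-2. FADS2 in T24 cells was at 1.88, 1.03 and 2.09 RPKM with siNC, at 1.38, 0.929 and 1.12 with siACAT1-1 and at 1.08, 0.866 and 1.23 with siACAT1-2. FADS2 was lower in 11 of 12 pairs, and its groups overlapped in both lines. The mean log2 fold change was −0.40 (SE 0.21, edgeR adjusted p = 0.515) without the block and −0.39 (SE 0.092, adjusted p = 0.0078) with it. The blocked call was lost without T24 siNC replicate 3 (adjusted p = 0.0643). FADS1 and FADS2 share 490 exon bases on opposite strands, and the strand setting of the counting is not given in the sources used here. FADS2 also shares 49 exon bases with FEN1 on the same strand. Mean levels were 14.2 RPKM for FADS1 and 49.2 for FEN1, against 1.16 for FADS2. How far their reads enter the FADS2 counts was not tested.

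SCD encodes the desaturase that turns saturated into monounsaturated fatty acids. SCD in UM-UC-3 cells was at 27.8, 35.7 and 19.7 RPKM with siNC, at 32.9, 32.8 and 15.2 with siACAT1-1 and at 31.2, 22.7 and 12.96 with siACAT1-2. SCD in T24 cells was at 6.43, 1.84 and 14.1 RPKM with siNC, at 3.02, 1.61 and 6.95 with siACAT1-1 and at 4.24, 2.72 and 11.3 with siACAT1-2. SCD differed more between replicate numbers than between siRNAs: in each T24 group replicate 2 was the lowest and replicate 3 the highest. The mean log2 fold change was −0.40 (SE 0.39, edgeR adjusted p = 0.776), and with the block −0.36 (SE 0.10, adjusted p = 0.0251). That call was kept in 10 of 18 fits with 1 library left out and lost, with adjusted p up to 0.180, without UM-UC-3 siNC replicates 2 or 3, siACAT1-1 replicate 3 or siACAT1-2 replicates 2 or 3, and without T24 siNC replicates 1 or 3 or siACAT1-1 replicate 1.

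Of the other lipogenesis genes, ACSS2, which makes acetyl-CoA from acetate, was lower in 12 of 12 pairs with a mean log2 fold change of −0.19 (SE 0.14) and was not called (edgeR adjusted p = 0.697 without the block, 0.204 with it). ACLY, which makes acetyl-CoA from citrate, was at 0.15 (SE 0.17), and ACACA, which carboxylates it, was at −0.15 (SE 0.21). Neither was called in any of the 4 comparisons, with or without the block. ELOVL6, which elongates palmitate, was at −0.12 (SE 0.23) and LPIN1, a phosphatidate phosphatase of triglyceride synthesis, at 0.35 (SE 0.19), and both differed between the siRNAs as described below.

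Of the isoprenoid genes MVK, the mevalonate kinase, had the largest mean change. MVK in UM-UC-3 cells was at 2.39, 2.63 and 2.76 RPKM with siNC, at 2.87, 2.300 and 1.73 with siACAT1-1 and at 2.72, 2.495 and 2.44 with siACAT1-2. MVK in T24 cells was at 1.73, 2.18 and 2.09 RPKM with siNC, at 1.04, 1.72 and 1.01 with siACAT1-1 and at 1.32, 1.67 and 1.42 with siACAT1-2. In T24 all 6 siACAT1 libraries lay below the 3 siNC libraries, and in UM-UC-3 the groups overlapped. The mean log2 fold change was −0.33 (SE 0.12, edgeR adjusted p = 0.323) without the block and −0.35 (SE 0.0955, adjusted p = 0.0216) with it. The blocked call was lost, with adjusted p up to 0.124, without UM-UC-3 siNC replicates 2 or 3 or T24 siNC replicates 1 or 3. The mean changes of PMVK, MVD, IDI1, FDPS and HMGCS1 lay between −0.14 and −0.09, and none was called in that mean in either fit.

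No sterol step was called in the mean of the 4 comparisons in either fit. TM7SF2, a sterol reductase, had the largest mean change, −0.37 (SE 0.21, edgeR adjusted p = 0.555 without and 0.160 with the block). TM7SF2 in UM-UC-3 cells was at 0.582, 0.521 and 0.7505 RPKM with siNC, at 0.416, 0.325 and 0.709 with siACAT1-1 and at 0.483, 0.532 and 0.761 with siACAT1-2. TM7SF2 in T24 cells was at 0.2302, 0.396 and 0.335 RPKM with siNC, at 0.206, 0.175 and 0.187 with siACAT1-1 and at 0.172, 0.396 and 0.203 with siACAT1-2. It was under 1 RPKM in every library and, in log2 CPM, lower than the same-numbered siNC library in 11 of 12 pairs, although in RPKM the second replicates with siACAT1-2 were level with or slightly above siNC. LSS, which closes the sterol rings as lanosterol synthase, was called in T24 with the block: its log2 fold change was 0.45 (SE 0.13, edgeR adjusted p = 0.0238) with siACAT1-1 and 0.46 (SE 0.13, adjusted p = 0.0317) with siACAT1-2. LSS in UM-UC-3 cells was at 2.300, 2.22 and 2.29 RPKM with siNC, at 1.997, 2.19 and 1.62 with siACAT1-1 and at 2.13, 1.75 and 1.47 with siACAT1-2. LSS in T24 cells was at 3.59, 8.19 and 3.64 RPKM with siNC, at 4.42, 11.03 and 5.56 with siACAT1-1 and at 4.02, 11.1 and 5.96 with siACAT1-2. T24 replicate 2 was the highest in each group. In UM-UC-3 all 6 siACAT1 libraries were below the 3 siNC libraries in RPKM, and in log2 CPM LSS was lower than siNC in 5 of 6 pairs there and higher in 6 of 6 in T24. The difference of effect between the lines was −0.77 (SE 0.44, edgeR adjusted p = 1.00 without the block; SE 0.16, adjusted p = 0.0635 with it) and was not called. The LSS calls were lost without 5 single libraries for siACAT1-1 and 7 for siACAT1-2, with adjusted p up to 0.249 and 0.319, among them T24 siNC replicates 2 and 3 for both. CYP51A1, the lanosterol demethylase, shares 78.8% of its exon bases with LRRD1 on the same strand, so its counts are uncertain.

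The SREBP genes were not called against siNC in any of the 4 comparisons or their mean, in either fit. SREBF1 in UM-UC-3 cells was at 4.63, 3.66 and 4.43 RPKM with siNC, at 4.602, 3.18 and 3.27 with siACAT1-1 and at 5.33, 3.26 and 3.602 with siACAT1-2. SREBF1 in T24 cells was at 1.42, 1.595 and 2.93 RPKM with siNC, at 1.24, 1.82 and 2.67 with siACAT1-1 and at 0.904, 1.56 and 1.94 with siACAT1-2. SREBF1, which encodes the SREBP of the fatty acid genes, had a mean log2 fold change of −0.19 (SE 0.19), and its groups overlapped in both lines. SREBF2 in UM-UC-3 cells was at 6.17, 5.72 and 5.15 RPKM with siNC, at 7.403, 6.01 and 4.58 with siACAT1-1 and at 6.85, 5.08 and 5.14 with siACAT1-2. SREBF2 in T24 cells was at 2.295, 1.78 and 3.34 RPKM with siNC, at 2.82, 2.22 and 3.23 with siACAT1-1 and at 2.39, 2.09 and 4.02 with siACAT1-2. SREBF2, which encodes the SREBP of the cholesterol genes, had a mean log2 fold change of 0.11 (SE 0.17). INSIG1 in UM-UC-3 cells was at 4.92, 4.85 and 2.599 RPKM with siNC, at 2.83, 3.89 and 1.58 with siACAT1-1 and at 5.14, 3.56 and 1.57 with siACAT1-2. INSIG1 in T24 cells was at 1.15, 0.778 and 0.772 RPKM with siNC, at 0.648, 0.781 and 0.675 with siACAT1-1 and at 1.17, 0.632 and 1.15 with siACAT1-2. INSIG1, itself a target of SREBP, had a mean of −0.27 (SE 0.26), and its groups overlapped in both lines. INSIG2 in UM-UC-3 cells was at 0.448, 0.663 and 0.656 RPKM with siNC, at 0.637, 0.462 and 0.884 with siACAT1-1 and at 0.709, 0.724 and 0.746 with siACAT1-2. INSIG2 in T24 cells was at 1.398, 1.85 and 1.76 RPKM with siNC, at 1.97, 2.11 and 2.79 with siACAT1-1 and at 2.27, 2.09 and 2.303 with siACAT1-2. INSIG2 was higher in 11 of 12 pairs, and all 6 siACAT1 libraries of T24 were above the 3 siNC libraries. Its mean log2 fold change of 0.33 (SE 0.14) was not called (edgeR adjusted p = 0.409 without and 0.0926 with the block). SCAP was at −0.19 (SE 0.10).

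In the mean of the 4 comparisons with the block, the 2 genes that rose were transport genes. NPC1 (chr18:23506184-23586898, minus strand) moves cholesterol out of late endosomes and lysosomes. It shares 604 exon bases (5.98%) with C18orf8 on the opposite strand, a gene at a mean of 5.34 RPKM. How far reads of C18orf8 enter the NPC1 counts was not tested. NPC1 in UM-UC-3 cells was at 1.34, 0.768 and 2.09 RPKM with siNC, at 1.81, 1.26 and 3.56 with siACAT1-1 and at 0.901, 1.08 and 2.81 with siACAT1-2. NPC1 in T24 cells was at 2.59, 12.2 and 3.21 RPKM with siNC, at 5.94, 16.9 and 6.64 with siACAT1-1 and at 4.22, 14.6 and 5.76 with siACAT1-2. The replicate 2 libraries of T24 were the highest in each of its groups, at 12.2, 16.9 and 14.6 RPKM, and NPC1 was above the same-numbered siNC library in 11 of 12 pairs. Its mean log2 fold change was 0.50 (SE 0.39, edgeR adjusted p = 0.698) without the block and 0.56 (SE 0.10, adjusted p = 0.0015) with it, and the blocked call held without any 1 library (adjusted p at most 0.0148). With siACAT1-1 in T24 the blocked log2 fold change was 0.90 (SE 0.16, adjusted p = 0.0011), and this call too held in 18 of 18 such fits.

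ABCA1 had the highest mean change, on few reads. ABCA1 in UM-UC-3 cells was at 0.0375, 0.0384 and 0.168 RPKM with siNC, at 0.119, 0.02297 and 0.148 with siACAT1-1 and at 0.105, 0.04303 and 0.1699 with siACAT1-2. ABCA1 in T24 cells was at 0.253, 0.438 and 0.597 RPKM with siNC, at 0.309, 0.797 and 0.753 with siACAT1-1 and at 0.691, 0.663 and 2.16 with siACAT1-2. These levels rested on 8 to 59 reads in the UM-UC-3 libraries and 95 to 780 in the T24 libraries. In T24 the siACAT1-2 libraries lay above the siNC libraries, and in the other comparisons the groups overlapped. The mean log2 fold change was 0.65 (SE 0.42, edgeR adjusted p = 0.626) without the block and 0.65 (SE 0.21, adjusted p = 0.0496) with it. The blocked call was kept in 3 of 18 fits with 1 library left out, those without UM-UC-3 siACAT1-1 replicate 2, T24 siACAT1-1 replicate 3 or T24 siACAT1-2 replicate 2, and reached an adjusted p of 0.275 in the others. With siACAT1-2 in T24 alone it was 1.39 (SE 0.28, adjusted p = 0.0036) with the block, a call lost without T24 siNC replicate 3 or T24 siACAT1-2 replicate 3 (adjusted p up to 0.0756).

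SOAT1 in UM-UC-3 cells was at 4.68, 5.65 and 4.82 RPKM with siNC, at 7.53, 6.79 and 5.95 with siACAT1-1 and at 4.55, 4.61 and 5.195 with siACAT1-2. SOAT1 in T24 cells was at 4.24, 4.48 and 3.49 RPKM with siNC, at 4.18, 7.199 and 3.72 with siACAT1-1 and at 3.52, 6.04 and 4.46 with siACAT1-2. SOAT1 was above siNC without overlap with siACAT1-1 in UM-UC-3, and overlapped siNC in the other 3 comparisons. Its mean log2 fold change was 0.20 (SE 0.13, edgeR adjusted p = 0.632 without and 0.191 with the block). STARD4, a carrier of sterols in the cytosol, was at 0.14 (SE 0.24) and MYLIP at −0.10 (SE 0.23), and neither was called against siNC in any of the 4 comparisons in either fit.

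**Figure D2:**
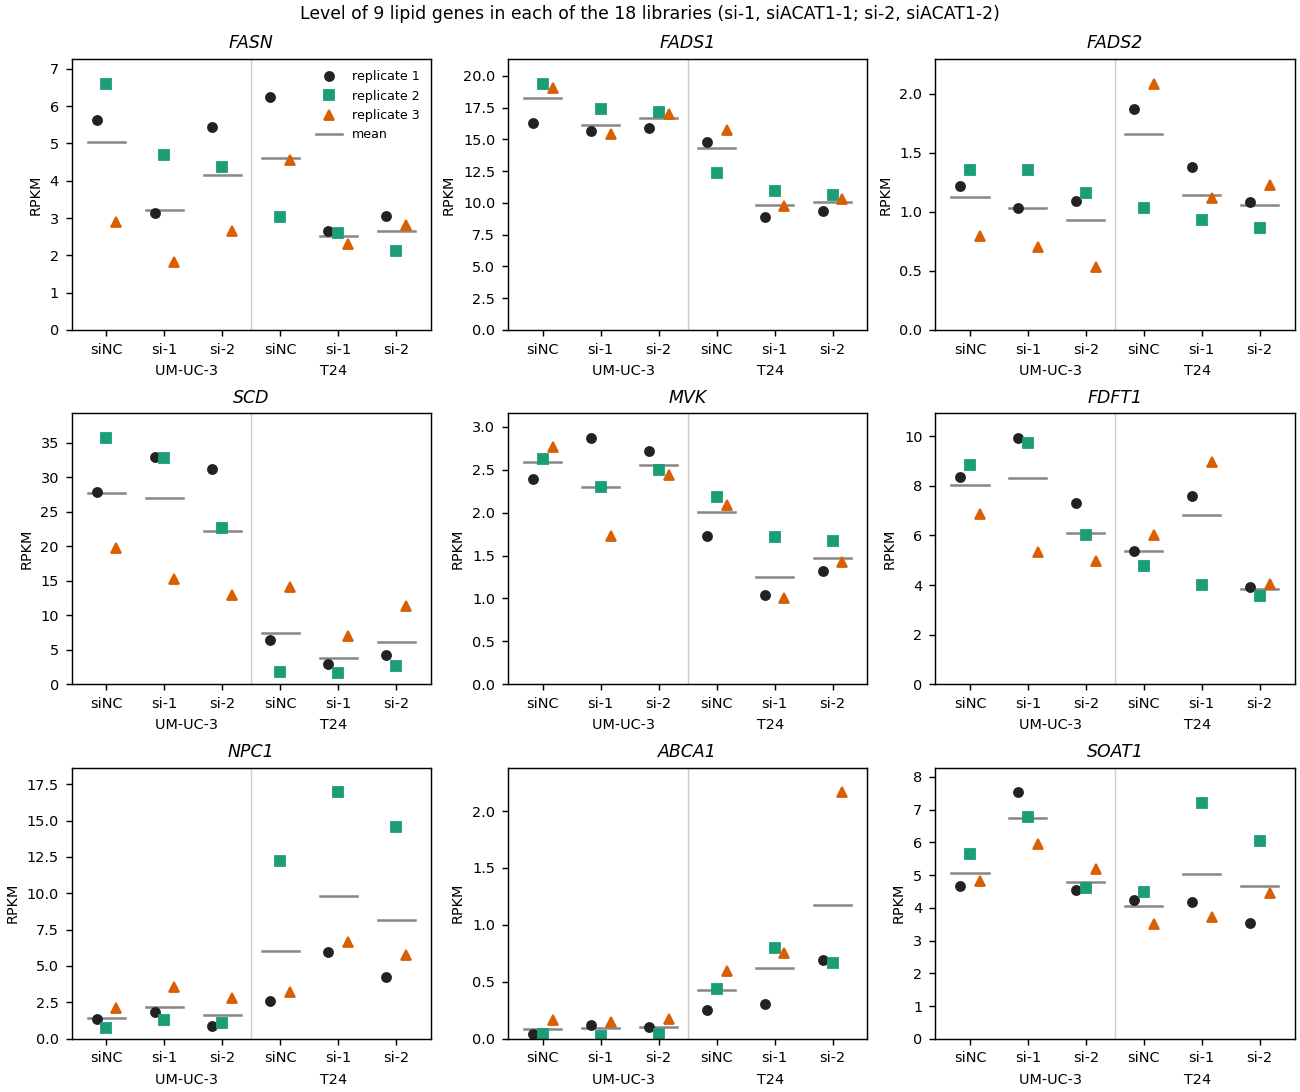
RPKM of 9 genes in each of the 18 libraries, by cell line and siRNA (x axis), with a marker for each replicate number and a grey line at the group mean of 3 libraries. FADS1 in T24 lay between 8.89 and 10.9 RPKM with the siACAT1 siRNAs and between 12.4 and 15.8 with siNC, and NPC1 in T24 was highest in replicate 2 of each group.

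The mean of both siRNAs was then compared between the cell lines. Without the block, the effect of knockdown differed between UM-UC-3 and T24 for 0 of 36 genes (0.0% of all genes). No member had an unadjusted p under 0.05 in that edgeR fit, against 2.57% of all genes. With the block the effect differed for 0 of 36 (0.104% of all genes). There 5 of 36 had an unadjusted p under 0.05 (13.9%, against 9.46% of all genes). DESeq2 also called 0 of 36. The mean effect had the same sign in both lines for 29 of 36 genes (80.6%), against 62.9% of all genes, and the correlation of the effects across the 36 genes, which are not independent, was 0.66 (Pearson's r; Spearman's rho 0.52), against 0.16 (rho 0.31) across all genes. FASN was at −0.48 in UM-UC-3 and −0.83 in T24, FADS1 at −0.17 and −0.51, NPC1 at 0.40 and 0.60, and LSS at −0.30 and 0.46, all without the block.

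The second comparison set siACAT1-2 against siACAT1-1, 2 siRNAs to the same gene. Without the block 0 of 36 genes were called (2.56% of all genes), 5 had an unadjusted p under 0.05 (13.9%, against 16.7% of all genes), and DESeq2 called FDFT1 and LPIN1 (5.56%, against 6.14% of all genes). With the block 10 of 36 were called (27.8%, against 20.6% of all genes): HMGCS1, PMVK and EBP were higher with siACAT1-2, and IDI1, FDFT1, DHCR7, NPC1, SOAT1, ELOVL6 and LPIN1 were lower. Against siNC, HMGCS1, PMVK, IDI1, FDFT1, DHCR7, SOAT1 and LPIN1 lay to opposite sides with the 2 siRNAs in UM-UC-3. In T24, HMGCS1, IDI1, FDFT1, DHCR7, EBP and ELOVL6 did. For some genes 1 of the values was small, as for HMGCS1 in UM-UC-3 (−0.25 with siACAT1-1 and 0.0058 with siACAT1-2, without the block). NPC1 was above siNC with both siRNAs in both lines. ACAT1 itself was lower with siACAT1-2 than with siACAT1-1 (log2 fold change −0.62, SE 0.15, edgeR adjusted p = 0.0340), and the part of that difference in these values was not tested.

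LPIN1 differed most. LPIN1 in UM-UC-3 cells was at 4.05, 3.81 and 3.18 RPKM with siNC, at 9.29, 4.24 and 3.25 with siACAT1-1 and at 4.25, 2.61 and 3.17 with siACAT1-2. LPIN1 in T24 cells was at 1.12, 1.35 and 1.37 RPKM with siNC, at 2.31, 2.15 and 2.81 with siACAT1-1 and at 0.8502, 1.58 and 1.59 with siACAT1-2. The highest LPIN1 value was in UM-UC-3 siACAT1-1 replicate 1, and in T24 the siACAT1-1 libraries lay above all libraries of the other groups. The log2 difference, siACAT1-2 minus siACAT1-1, was −0.82 (SE 0.22, edgeR adjusted p = 0.0544) without the block and −0.78 (SE 0.13, adjusted p = 3.61e-04) with it. LPIN1 was lower with siACAT1-2 in 6 of 6 pairs of the same number, as were IDI1, FDFT1 and NPC1, while HMGCS1 and PMVK were higher in 6 of 6. Of all genes, 19.9% were on 1 side in all 6 pairs.

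FDFT1, the squalene synthase that commits farnesyl diphosphate to sterols, showed the same order. FDFT1 in UM-UC-3 cells was at 8.37, 8.84 and 6.86 RPKM with siNC, at 9.92, 9.71 and 5.32 with siACAT1-1 and at 7.29, 6.001 and 4.95 with siACAT1-2. FDFT1 in T24 cells was at 5.37, 4.75 and 6.03 RPKM with siNC, at 7.59, 3.98 and 8.94 with siACAT1-1 and at 3.92, 3.54 and 4.04 with siACAT1-2. In T24 siACAT1-1, replicate 2 lay below the 3 siNC libraries and the other replicates above them, and all 3 siACAT1-2 libraries lay below siNC. The difference between the siRNAs was −0.66 (SE 0.20, edgeR adjusted p = 0.0890; DESeq2 adjusted p = 0.0337) without the block and −0.61 (SE 0.11, adjusted p = 6.61e-04) with it.

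IDI1 in UM-UC-3 cells was at 6.85, 7.29 and 4.42 RPKM with siNC, at 8.43, 9.21 and 5.16 with siACAT1-1 and at 6.71, 5.79 and 3.497 with siACAT1-2. IDI1 in T24 cells was at 5.07, 3.97 and 3.22 RPKM with siNC, at 4.81, 3.74 and 3.91 with siACAT1-1 and at 3.66, 2.64 and 2.096 with siACAT1-2. IDI1, which isomerises isopentenyl diphosphate, was lowest with siACAT1-2 within each replicate number of both lines. The difference was −0.55 (SE 0.22, edgeR adjusted p = 0.214) without the block and −0.57 (SE 0.094, adjusted p = 2.74e-04) with it. Of its exon bases 17.9% overlap IDI2-AS1 on the opposite strand.

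HMGCS1, the cytosolic HMG-CoA synthase, went the other way. HMGCS1 in UM-UC-3 cells was at 17.1, 19.3 and 12.2 RPKM with siNC, at 14.6, 16.9 and 9.35 with siACAT1-1 and at 19.02, 18.1 and 13.1 with siACAT1-2. HMGCS1 in T24 cells was at 8.48, 6.17 and 6.58 RPKM with siNC, at 6.39, 4.72 and 6.26 with siACAT1-1 and at 10.01, 5.97 and 7.36 with siACAT1-2. Its level with siACAT1-1 was the lowest of the 3 siRNAs within every replicate number of both lines. The difference was 0.35 (SE 0.20, edgeR adjusted p = 0.401) without the block and 0.35 (SE 0.084, adjusted p = 0.0057) with it, and 15.0% of its exon bases overlap a gene on the opposite strand. The blocked calls of HMGCS1, IDI1, FDFT1 and LPIN1 held without any 1 library.

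EBP in UM-UC-3 cells was at 6.97, 7.98 and 4.19 RPKM with siNC, at 5.96, 7.53 and 3.69 with siACAT1-1 and at 7.43, 7.07 and 4.34 with siACAT1-2. EBP in T24 cells was at 19.6, 15.5 and 15.2 RPKM with siNC, at 11.03, 10.8 and 10.99 with siACAT1-1 and at 21.3, 13.4 and 16.2 with siACAT1-2. EBP, a sterol isomerase, was lower with siACAT1-1 than with siNC in T24 without overlap, and the siRNAs differed by 0.36 (SE 0.096, edgeR adjusted p = 0.0105 with the block, 0.412 without), a call lost without T24 siACAT1-1 replicate 1 (0.0559). DHCR7 in UM-UC-3 cells was at 5.501, 5.99 and 2.99 RPKM with siNC, at 6.75, 6.24 and 2.34 with siACAT1-1 and at 5.901, 3.68 and 2.41 with siACAT1-2. DHCR7 in T24 cells was at 1.47, 1.19 and 1.25 RPKM with siNC, at 1.29, 0.845 and 1.93 with siACAT1-1 and at 0.612, 0.871 and 1.05 with siACAT1-2. DHCR7, which makes cholesterol in the last step, differed by −0.49 (SE 0.15, adjusted p = 0.0247 with the block, 0.385 without). Its call was lost without 7 of the 18 libraries, UM-UC-3 siACAT1-1 replicates 1 or 2 or siACAT1-2 replicate 2 and T24 siACAT1-1 replicates 1 or 3 or siACAT1-2 replicates 1 or 3, with adjusted p up to 0.135. ELOVL6 in UM-UC-3 cells was at 7.82, 12.01 and 5.35 RPKM with siNC, at 7.196, 10.98 and 4.94 with siACAT1-1 and at 7.43, 8.52 and 4.37 with siACAT1-2. ELOVL6 in T24 cells was at 3.301, 2.15 and 2.51 RPKM with siNC, at 4.19, 1.93 and 3.52 with siACAT1-1 and at 2.29, 1.903 and 2.31 with siACAT1-2. ELOVL6 differed by −0.35 (SE 0.098, adjusted p = 0.0141 with the block, 0.491 without) and lost the call without UM-UC-3 siACAT1-2 replicate 2, T24 siACAT1-1 replicates 1 or 3 or T24 siACAT1-2 replicate 1 (up to 0.0693). The siACAT1-1 and siACAT1-2 groups of these 3 genes overlapped in UM-UC-3, and in T24 those of EBP did not.

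NPC1 was lower with siACAT1-2 than with siACAT1-1 by 0.42 with the block (log2 difference −0.42, SE 0.12, edgeR adjusted p = 0.0137), lost without UM-UC-3 siACAT1-2 replicate 1 or T24 siACAT1-1 replicate 1 (up to 0.0640). SOAT1 (−0.30, SE 0.10, adjusted p = 0.0406) kept its blocked call in 9 of 18 fits with 1 library left out and PMVK (0.24, SE 0.085, adjusted p = 0.0459) in 6 of 18. SOAT1 lost it without UM-UC-3 siNC replicate 3, without replicates 1 or 2 of any siACAT1 group, in either line. PMVK lost it without UM-UC-3 siNC replicate 3, siACAT1-1 replicates 1 or 3 or any siACAT1-2 library, and without T24 siNC replicates 1 or 3, siACAT1-1 replicates 1 or 3 or siACAT1-2 replicates 1 or 2. The adjusted p reached 0.146 and 0.168.

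**Figure D3:**
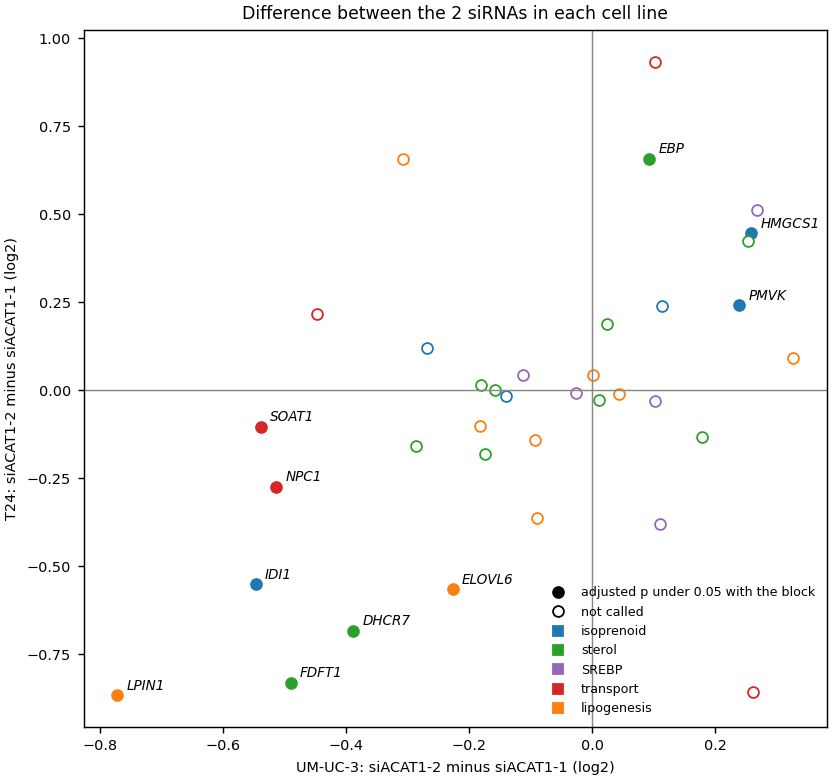
Difference between siACAT1-2 and siACAT1-1 (log2, without the block) of 36 genes in UM-UC-3 (x axis) and T24 (y axis), coloured by role, filled where the difference over both lines was called with the block. LPIN1 is at −0.77 and −0.87, FDFT1 at −0.49 and −0.83 and IDI1 at −0.55 in both lines. The sign was the same in both lines for 24 of 36 genes (66.7%, against 61.8% of all genes).

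The replicate numbers separated these genes. Within UM-UC-3, replicate number took a median of 68.8% of the sum of squares of log2 CPM over the 36 genes, against 38.7% over all genes, and siRNA took 17.2% against 25.5%. Within T24, replicate number took 53.3% against 44.7%, and siRNA 24.4% against 25.5%. Replicate 3 of UM-UC-3 and replicate 2 of T24 were singled out with values known, since they stood apart from the other two. UM-UC-3 replicate 3 was below both other replicates in all 3 groups for 18 of 36 genes (17.9% of all genes were) and above both for 5 (16.8%), NPC1, ABCA1, PMVK, TM7SF2 and HSD17B7. T24 replicate 2 was below both for 14 (19.6% of all genes) and above for 5 (21.4%), NPC1, LSS, SC5D, MVK and PMVK. What a replicate number marks is not given in the labels beyond the words biological replicate.

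Of the 36 genes 12 were below in both sets: HMGCS1, FDPS, FDFT1, SQLE, EBP, SREBF2, STARD4, ACLY, ACACA, ELOVL6, SCD and FADS2. NPC1 and PMVK were above in both. The share of all genes below in both sets, or above in both, is not given here, so these counts only describe the list. In UM-UC-3 replicate 3, INSIG1 was lower than the mean of the other replicates by 1.18 on the log2 scale (mean difference −1.18), DHCR7 by 1.16 (−1.16), FASN by 1.05 (−1.05) and SCD by 0.98 (−0.98), and NPC1 was higher by 1.22 and ABCA1 by 1.50. In T24 replicate 2, SCD was lower by 1.83 (−1.83) and ACACA by 0.88 (−0.88), and NPC1 was higher by 1.59 and LSS by 1.07. LSS moved in opposite directions in the 2 sets, by −0.29 in UM-UC-3. The total counts of these libraries, 28522446 to 30888978 in UM-UC-3 replicate 3 and 28163252 to 30160793 in T24 replicate 2, lay within the range of the others of their line.

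With the block and without replicate 3 of UM-UC-3, the mean of the 4 comparisons held 3 called genes, FASN (adjusted p = 0.0062), FADS1 (0.0251) and NPC1 (0.0225), in place of 7, and FADS2 was at 0.0505, MVK at 0.131 and SCD at 0.160. With the block and without replicate 2 of T24, the 7 genes above stayed called: FASN (3.10e-05), FADS1 (1.49e-04), NPC1 (2.27e-04), SCD (7.43e-04), FADS2 (0.00176), MVK (0.00834) and ABCA1 (0.0159), all by edgeR. ABCA1 was at 0.0779 without replicate 3 of UM-UC-3. The share of all genes called in these smaller fits is not given here, so 3 in place of 7 cannot be set against all genes.

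**Figure D4:**
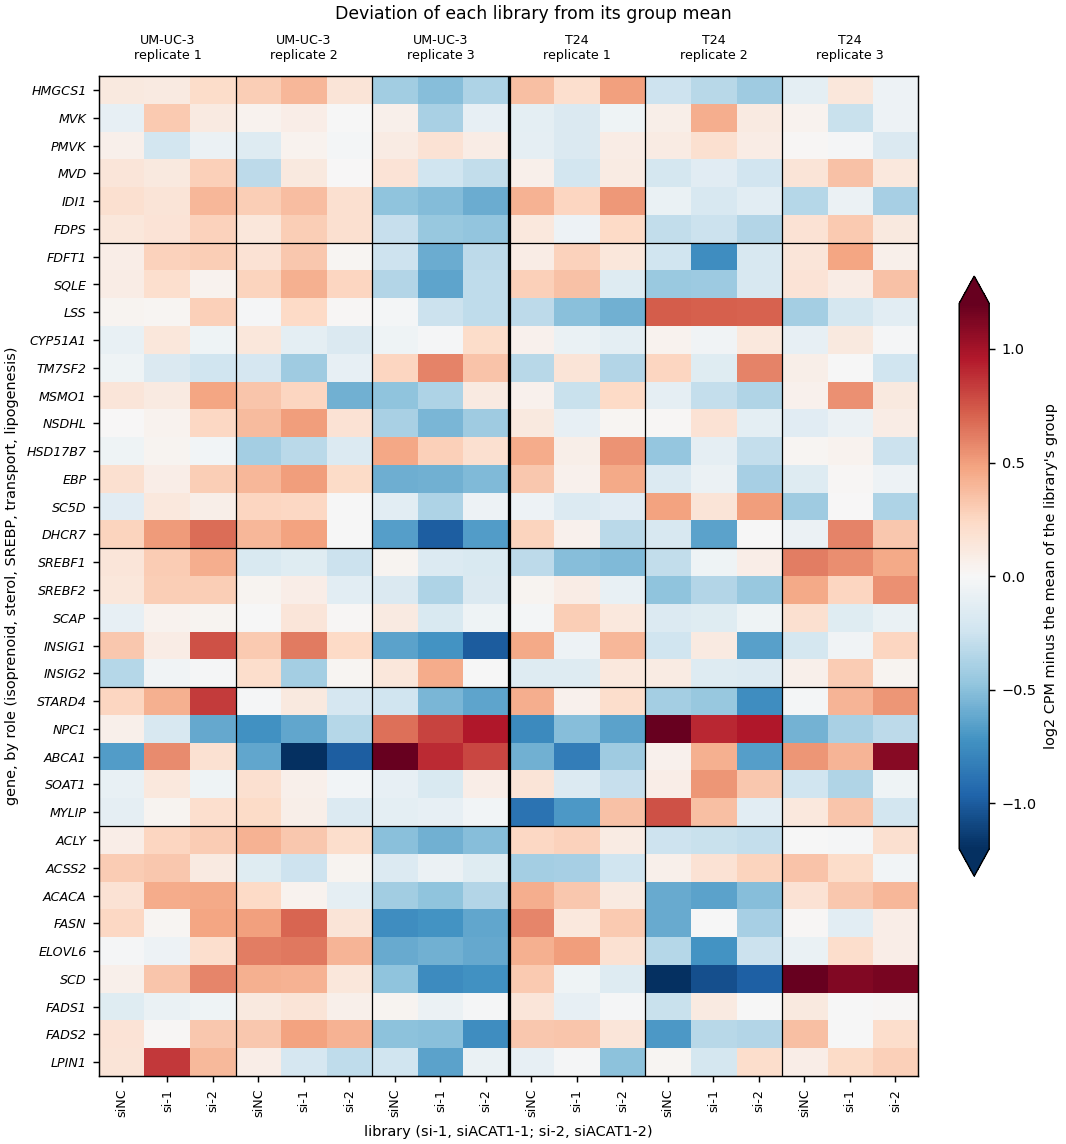
Deviation of each of 18 libraries (x axis, grouped by cell line and replicate number) from the mean of its group, in log2 CPM, for 36 genes (y axis, ordered by role). The colour scale ends at 1.2 in either direction. In UM-UC-3 replicate 3 and T24 replicate 2 SCD, ACACA, ELOVL6 and HMGCS1 are blue, below their group mean, and NPC1 is red, above it, with all 3 siRNAs.

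The control cells of the lines were compared last. Between the siNC groups, 21 of 36 genes were called (58.3%, against 44.3% of all genes), 15 higher and 6 lower in UM-UC-3 than in T24. The median log2 difference, UM-UC-3 minus T24, was 0.41 over the 36 genes and 0.03 over all genes. Replicate numbers do not pair libraries across lines, so no block was used. The called genes were 2 of 6 isoprenoid, 7 of 11 sterol, 4 of 5 SREBP, 3 of 5 transport and 5 of 9 lipogenesis genes.

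MYLIP was higher in UM-UC-3 by 2.61 on the log2 scale (1.25 ± 0.16 against 0.216 ± 0.13 RPKM, SD, n = 3), with no overlap of the groups. INSIG1 was higher by 2.23 (SE 0.44), DHCR7 by 1.93 (SE 0.43), ELOVL6 by 1.70 (SE 0.38) and LPIN1 by 1.58 (SE 0.31), again with no overlap, and both SREBF2 (1.25, SE 0.28) and SREBF1 (1.15, SE 0.32) were higher. SCD, at 27.7 ± 8.0 against 7.46 ± 6.2 RPKM (SD, n = 3), was higher by 1.94 (SE 0.67, edgeR adjusted p = 0.0265). ABCA1 was lower in UM-UC-3 by 2.34 (log2 difference −2.34, SE 0.70, adjusted p = 0.0116), NPC1 by 2.03 (−2.03, SE 0.64, adjusted p = 0.0163), INSIG2 by 1.45 (−1.45, SE 0.24) and EBP by 1.35 (−1.35, SE 0.31). The highest siNC levels were SCD, NSDHL and PMVK in UM-UC-3 (27.7, 25.2 and 24.9 RPKM) and PMVK, FDPS and NSDHL in T24 (29.7, 28.4 and 24.8 RPKM). SOAT1, at 5.05 ± 0.53 and 4.07 ± 0.51 RPKM (SD, n = 3), was not called (0.36, SE 0.21, adjusted p = 0.193), nor was FASN (0.16, SE 0.38).

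The NPC1 groups did not overlap in RPKM, but T24 siNC replicate 2 held 12.2 RPKM against 2.59 and 3.21 in the other 2 libraries. Without that library the NPC1 difference was −1.08 and was not called (edgeR adjusted p = 0.160). The NPC1 call was also lost without UM-UC-3 siNC replicate 1 (0.0507) or 2 (0.0692). SCD lost its call without UM-UC-3 siNC replicate 1 (0.0522) or 2 (0.0773) or T24 siNC replicate 1 (0.0724) or 2 (0.0884), and ABCA1 without UM-UC-3 siNC replicate 1 (0.0541) or 2 (0.0527).

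**Figure D5:**
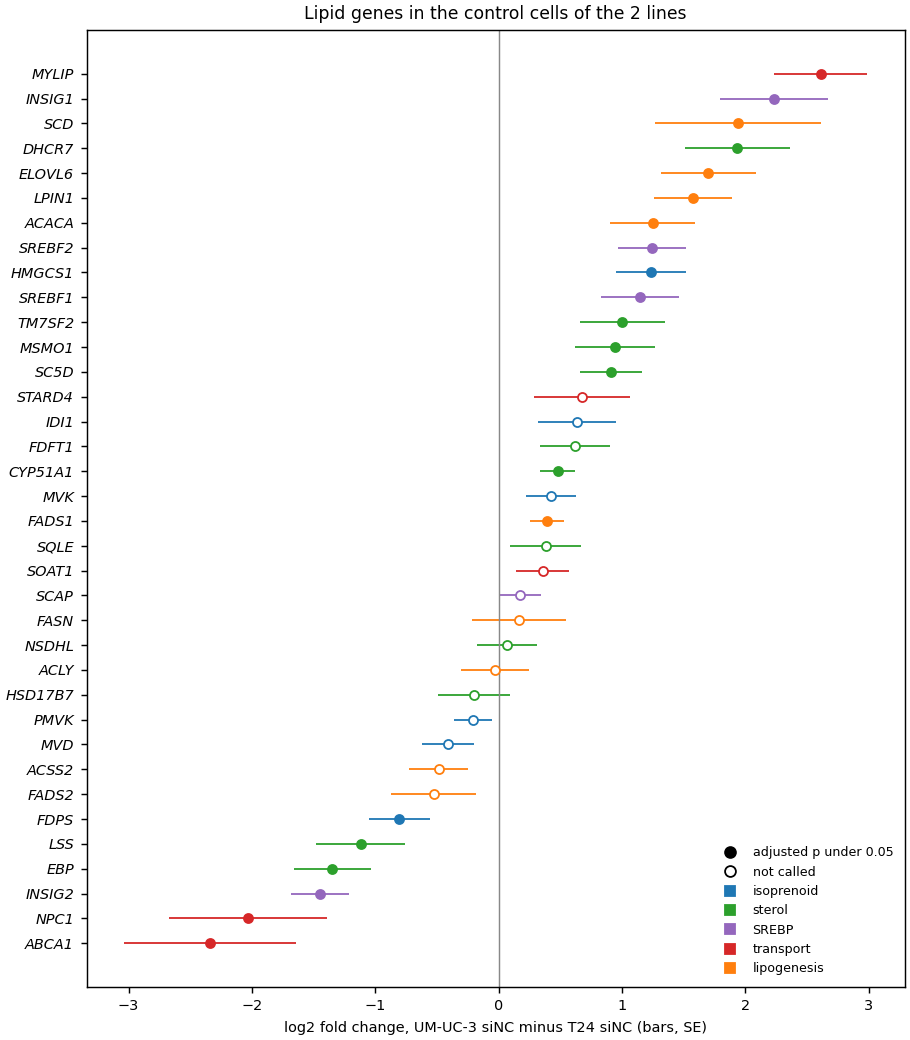
Log2 fold change of 36 genes between siNC cells, UM-UC-3 minus T24 (x axis, bars are SE), ordered by value and coloured by role, filled where the edgeR adjusted p was under 0.05. MYLIP at 2.61 and ABCA1 at −2.34 are the ends of the range.

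Other genes of these pathways, 41 in a list of transport, uptake, desaturase, acyl-CoA and glycerolipid genes, were looked at beside the 37, and 40 were matched and 37 tested. In the mean of the 4 comparisons 0 were called without the block and 3 with it (8.11%, against 12.4% of all genes): VLDLR, a lipoprotein receptor, rose by 0.56 (SE 0.098, edgeR adjusted p = 9.97e-04), TECR, the last enzyme of very long chain elongation, fell (−0.35, SE 0.089, adjusted p = 0.0139), and ACAT2, the cytosolic enzyme that opens the mevalonate pathway, fell (−0.32, SE 0.074, adjusted p = 0.0078). ACAT2, named after its values were seen, was lower than the same-numbered siNC library in 12 of 12 pairs. Of all genes, 1.62% were higher in 12 of 12 pairs. None of the 36 genes was, although NPC1, INSIG2 and HSD17B7 were higher in 11.

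Between the siRNAs 1 of these 37 was called without the block (2.70%, against 2.56% of all genes) and 10 with it (27.0% against 20.6%). NR1H2, which encodes an LXR receptor, was higher with siACAT1-2 by 0.74 (SE 0.16, edgeR adjusted p = 0.0201) without the block and 0.76 (SE 0.090) with it, in 6 of 6 pairs. Its unblocked adjusted p was between 0.0518 and 0.0762 without replicate 3 of all UM-UC-3 groups and without any 1 of 5 libraries, UM-UC-3 siACAT1-1 replicate 1, siACAT1-2 replicates 1 or 2 and T24 siACAT1-1 replicates 1 or 3. With the block NPC2, which hands cholesterol to NPC1, was higher by 0.76 (SE 0.13) and LIPA, the lysosomal acid lipase, by 0.60 (SE 0.14), while LBR, a sterol reductase of the nuclear envelope, differed by −0.64 (SE 0.12), ME1, a source of NADPH, by −0.63 (SE 0.13) and GPAM, which starts glycerolipid synthesis, by −0.45 (SE 0.12). NPC1 and NPC2 thus differed between the siRNAs in opposite directions.

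The libraries held 25163490 to 34417230 counted reads (median 28613163). The urothelial keratins KRT8 and KRT18 were high in every library, at 27.8 RPKM or more, but of 14 matched urothelial markers only 3 in UM-UC-3 and 7 in T24 had a median over 1 RPKM, and UPK1B, UPK3A and CDH1 were at 0 in 17, 17 and 15 of 18 libraries. Of 8 markers of other cells 2, CD68 and COL1A1, had a median over 1 RPKM in either line, with a summed level of 127 to 217 RPKM in UM-UC-3 and 16.9 to 170 in T24, and CD3E and PTPRC were at 0 in 17 and 10 of 18 libraries.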

How the data were processed

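RNA-seq libraries were made with a stranded kit that carries unique molecular identifiers, from 18 samples in 6 groups of 3 biological replicates. The authors trimmed reads with Trimmomatic 0.36, aligned them with STAR 2.5.3 to GRCh38 and counted them with featureCounts (Subread 1.5.1). The annotation release, strand setting, and treatment of multi-mapping reads and molecular identifiers are not given in the sources used here. The deposited table holds counts per gene and RPKM, and the deposited RPKM equalled the counts scaled by gene length and column total within 1e-6 in 100% of values. Of the gene names 26 look like dates and 2 occur more than once.

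Counts were tested with edgeR 4.0.16 (R 4.3.3; filterByExpr, TMM, quasi-likelihood F-test) in 1 model of the 6 groups, with Benjamini-Hochberg adjustment over 20144 genes and a threshold of 0.05. RPKM values describe levels and were not tested. Alternatives were a block for replicate number in each line, DESeq2 1.42.0, its size factors in edgeR, no filter on low counts, and leaving out each library or a whole replicate number. The scripts were tested on simulated data. Same-numbered libraries of a line deviated together from their group means (r from 0.115 to 0.576 over 9 pairs in UM-UC-3 and from 0.356 to 0.686 over 9 in T24, against −0.545 to 0.269 and −0.567 to 0.210 over 18 pairs of other numbers), so the numbers were taken to pair libraries. The pairing rests on these correlations, since the labels do not say what a number marks, and p-values measure the spread between these samples.

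The 37 genes and all lists were chosen with earlier results of these data known. Named genes were up to 14 with the largest change among those called, the genes of largest mean change in each role, and HMGCS1, INSIG1, SREBF1, SREBF2 and SOAT1, with up to 10 in the control cells and 8 of the other pathway genes. A few others are named to complete short counts. Replicate 3 of UM-UC-3 and replicate 2 of T24 and the CCAAT motif were chosen after seeing the data.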

Additional observations from a re-analysis of the deposited data

How the results depend on the processing

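The replicate block decided most calls: of the 36 genes it called 2 with siACAT1-1 in UM-UC-3, 10 with siACAT1-1 in T24, 7 with siACAT1-2 in T24, 7 in the mean of the 4 comparisons and 10 between the siRNAs, where the fit without it called 0. In the same order of T24 siACAT1-1, T24 siACAT1-2, mean and siRNA difference, DESeq2 called 1, 1, 1 and 2 genes and edgeR without the low-count filter 3, 1, 1 and 2. Without the block and without replicate 2 of all T24 groups there were 2 with siACAT1-1 in T24, 1 in the mean and 2 between the siRNAs. With the block and without these libraries, the 7 genes of the mean stayed called, as given above. For the fits without the low-count filter or without T24 replicate 2, the calls over all genes are not given here. Over all genes, edgeR, edgeR with the block and DESeq2 called 2, 617 and 18 with siACAT1-1 in UM-UC-3, 11, 273 and 37 with siACAT1-2, 25, 2799 and 380 with siACAT1-1 in T24, 54, 1708 and 243 with siACAT1-2, 45, 2500 and 301 in the mean, 515, 4141 and 1236 between the siRNAs, and 0, 21 and 1 for the difference between the lines. No block could be fitted between the control cells of the lines.

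Without replicate 3 of all UM-UC-3 groups the median of the 36 genes with siACAT1-1 in UM-UC-3 was 0.027 in place of −0.09, and with the block 0 genes were called there and 3 in the mean. With 1 library left out, that median ranged from −0.15 to 0.062 and the median with siACAT1-2 in T24 from −0.14 to −0.022. Calls without the block then ranged from 0 to 1 with siACAT1-1 in T24, 0 to 1 in the mean and 0 to 2 between the siRNAs. With the block they ranged from 0 to 2 with siACAT1-1 in UM-UC-3, 1 to 11 and 2 to 10 with siACAT1-1 and siACAT1-2 in T24, 3 to 8 in the mean, 4 to 13 between the siRNAs and 0 to 1 for the difference between the lines. The calls over all genes in these smaller fits are not given here, so these ranges cannot be set against a share of all genes. Uncalled mean log2 fold changes turned sign without T24 siNC replicate 1 for IDI1 (range over the left-out libraries −0.22 to 0.0059), HMGCS1 (−0.18 to 0.010) and ELOVL6 (0.0035), which also did so without UM-UC-3 siNC replicate 2 (−0.24 to 0.064), and without T24 siNC replicate 2 for SREBF2 (−0.000349 to 0.23). NPC1 with siACAT1-2 in T24, without the block, turned sign without T24 siACAT1-2 replicate 2 (−0.20 to 1.42). The cause of these shifts was not tested.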
